A study of Mus musculus with 12 samples.

Results

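Mouse head and neck tumours treated with an antibody against the checkpoint receptor PD-1 alone were compared with tumours of vehicle-treated mice, across all genes of 1 RNA-seq count table. The comparison uses 6 of the 12 libraries of the study: the 3 labelled anti-PD1 and the 3 labelled vehicle, taken from the labels and numbered as the titles number them. The tumours came from Sq-1979, a mouse head and neck squamous cell carcinoma (HNSCC) line, injected subcutaneously in Matrigel into male C3H/HeN mice that were 6 weeks old, and treatment ran from day 20. Both groups received no regorafenib. The other 6 libraries are from mice given regorafenib, an inhibitor of several receptor kinases, at 5 mg/kg per day, either alone (3 libraries) or with anti-PD1 (3 libraries, called the combination), and they entered the fit and are quoted only beside the anti-PD1 values. The labels give neither the clone nor the dose of the antibody, and their treatment protocol words the route as oral gavage for every agent. The tumours are grafts of a single cell line in an immunocompetent strain, and no label tells if the 3 libraries of a group are 3 different animals, so p-values measure the spread between these samples, which may be technical.

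PD-1, encoded by Pdcd1, is an inhibitory receptor that T cells display after activation. Its ligands PD-L1 (Cd274) and PD-L2 (Pdcd1lg2) are carried by tumour cells and by antigen-presenting cells, and engagement dampens signalling from the T cell receptor. Antibodies that block PD-1 are used to release T cells from this restraint. Activated T cells secrete interferon gamma, which acts through factors such as IRF1 to switch on guanylate-binding proteins, antigen presentation genes, the chemokines CXCL9 and CXCL10, and PD-L1 itself.

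The 6 libraries held 23527359 to 28209036 counts and 23210 to 23980 genes with at least 1 count, and the squamous keratin gene Krt5 stood at 5239 to 7890 CPM (read counts scaled to a common library size with TMM factors) in all of them. The anti-PD1 libraries differed more from each other than the vehicle libraries did. Pearson's r of log2 CPM across genes was 0.9904 to 0.9913 between vehicle libraries and 0.9722 to 0.9833 between anti-PD1 libraries, and anti-PD1 2 had 0.9898 to 0.9917 with the vehicle libraries. Anti-PD1 1 had 0.9741 to 0.9789 with them and anti-PD1 3 had 0.9824 to 0.9876. Over all 12 libraries, the highest r of anti-PD1 1 was 0.9873, with regorafenib 3. That of anti-PD1 3 was 0.988, with regorafenib 2. These are correlations over the same genes, described without a test.

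No gene passed the test. By edgeR's quasi-likelihood test, 0 of 16974 genes had an adjusted p under 0.05 (0% called), and the smallest adjusted p was 0.865. At an unadjusted p under 0.05, edgeR counted 878 genes (5.17%), of which 561 (3.31%) were higher with anti-PD1 and 317 (1.87%) lower. DESeq2 called 2 genes, both higher, Bbx and Itgb8. The median log2 fold change over all genes was 0.01, and 51.7% of genes had a positive one. All 3 anti-PD1 libraries lay above all 3 vehicle libraries for 1346 genes (7.93%) and below them for 1541 (9.08%). Every gene named below is therefore given with its values and as not past the edgeR threshold. The adjusted p by edgeR was 0.865 or more for each gene tested. Fold changes are log2 differences of anti-PD1 minus vehicle with their standard error (SE).

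The receptor and its ligands had higher means with anti-PD1, with libraries 1 and 3 high and library 2 within or just above the vehicle range. Pdcd1 (ENSMUSG00000026285) stood at 6.88, 5.90 and 4.71 CPM with vehicle and at 13.6, 6.26 and 16.7 CPM with anti-PD1. The groups overlap through anti-PD1 2, and the log2 fold change was 1.07 ± 0.43 (SE). Cd274, on chromosome 19 from 29367455 to 29388095 in GRCm38, stood at 90.3, 71.2 and 45.5 CPM with vehicle and at 226, 77.5 and 162 CPM with anti-PD1. Its log2 fold change was 1.17 ± 0.39 (SE), with a 95% interval of 0.31 to 2.03 that is not adjusted for the number of genes. Pdcd1lg2 was rarer and its groups did not overlap: 0.839, 0.922 and 0.694 CPM with vehicle against 3.65, 1.15 and 8.84 CPM with anti-PD1, a log2 fold change of 2.47 ± 0.95 (SE). Tnfrsf9, which encodes the costimulatory receptor 4-1BB, stood at 8.05, 7.27 and 4.24 CPM with vehicle and 14.8, 7.06 and 21.4 CPM with anti-PD1. Ctla4, another inhibitory T cell receptor, stood at 3.44, 2.398 and 2.12 CPM against 5.35, 2.27 and 9.16 CPM. Of 26 PD-1 axis and checkpoint genes, 0 passed, 23 had a positive log2 fold change and 3 (11.5%) had all anti-PD1 libraries above all vehicle libraries, where 7.93% of all genes did. Their median was 0.51, and it was 0.09 without anti-PD1 3.

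T cell genes followed the same order of libraries. All 24 genes of T cell identity and receptor signalling had a positive log2 fold change, with a median of 0.71 (0.31 without anti-PD1 3) and 0 past the test. In anti-PD1 3, 23 of the 24 lay above the highest vehicle library, in anti-PD1 1 22 did, and in anti-PD1 2 3 did. Over all genes tested the same shares were 31.4%, 36.5% and 28.5%. The list level (mean log2 CPM minus its vehicle mean) was 0.557, -0.087 and 1.316 in anti-PD1 1 to 3. Outside this comparison, it was 1.229, 1.31 and -0.027 with regorafenib alone, without the antibody. Cd3d, a chain of the T cell receptor complex, stood at 4.61, 3.03 and 3.09 CPM with vehicle and at 7.38, 4.65 and 11.96 CPM with anti-PD1, so its groups touch but do not overlap (log2 fold change 1.16 ± 0.44, SE). Sla2, an adaptor that limits receptor signalling, also had separate groups, at 2.31, 2.14 and 1.20 CPM against 3.48, 2.65 and 5.64 CPM. Cd8a, the coreceptor of cytotoxic T cells, stood at 15.8, 15.6 and 13.3 CPM with vehicle and at 24.8, 15.4 and 30.3 CPM with anti-PD1. Cd4, the coreceptor of helper T cells, was high in anti-PD1 3 only: 62.4 CPM there against 22.2 and 19.5 CPM in the other anti-PD1 libraries and 20.7 to 26.4 CPM with vehicle. Its log2 fold change was 0.61 ± 0.56 (SE) and changed sign, to -0.12, without that library. Foxp3, the factor of regulatory T cells, stood at 4.15, 3.17 and 2.82 CPM with vehicle and 5.05, 3.03 and 10.3 CPM with anti-PD1. In bulk tumour RNA, more cells of a type and more RNA per cell cannot be told apart.

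Cytotoxic effector genes had a median of 0.66 (0.28 without anti-PD1 3) over 21 tested members, 19 of them positive, and 0 passed or had groups apart. Gzmb, a granule protease, stood at 14.9, 12.1 and 6.67 CPM with vehicle and at 21.8, 12.5 and 42.9 CPM with anti-PD1. Prf1, the pore-forming perforin, stood at 4.24, 3.50 and 1.89 CPM against 6.70, 3.92 and 8.55 CPM. Both genes had 2 anti-PD1 libraries above every vehicle library and anti-PD1 2 inside the vehicle range. Ifng itself was low in all 6 libraries, at 0.587, 0.590 and 0.424 CPM with vehicle and 0.933, 0.576 and 1.72 CPM with anti-PD1 (log2 fold change 1.01 ± 0.55, SE). Il2rb, a receptor chain for interleukin 2 and 15, stood at 31.2, 27.6 and 20.8 CPM against 52.0, 29.8 and 81.2 CPM. The granzyme, Klr and Gbp genes are families of similar sequence, and how the deposited counts split shared reads among them is not given in the sources used here.

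**Figure D1:**
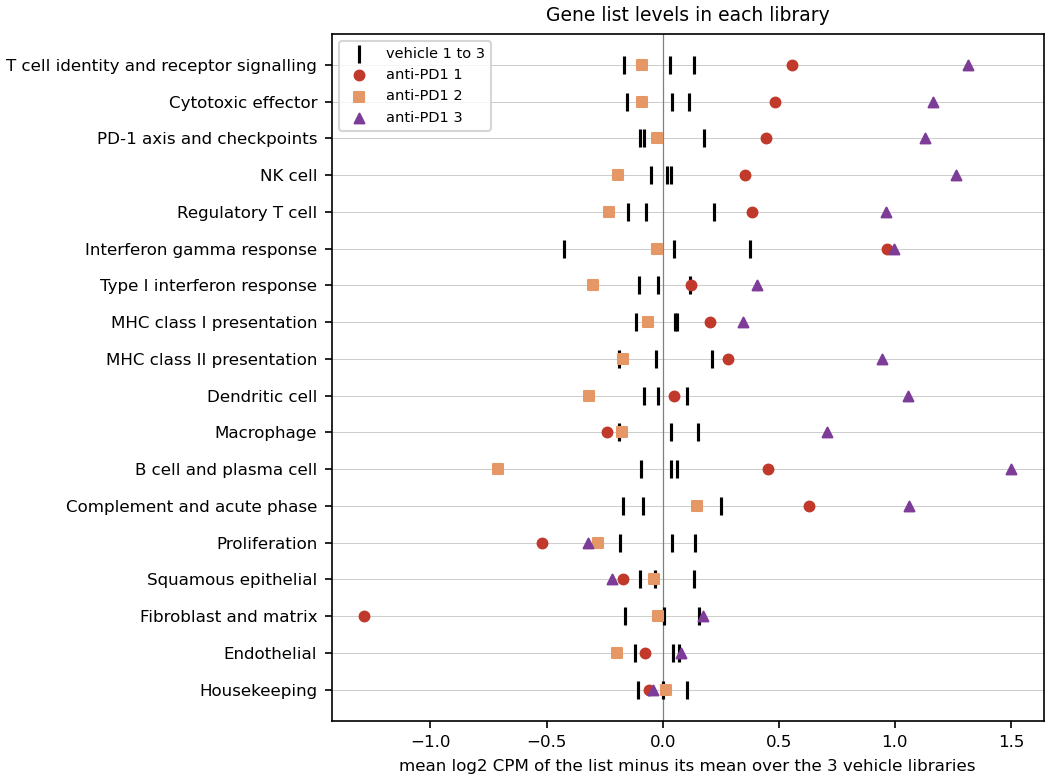
Level of 18 gene lists in each of the 6 libraries, as the mean log2 CPM of the list's genes minus its mean over the 3 vehicle libraries (black ticks are vehicle libraries, coloured symbols the anti-PD1 libraries). For the T cell list anti-PD1 1 sat at 0.557 and anti-PD1 3 at 1.316, while anti-PD1 2 sat at -0.087 among the vehicle ticks, and for the proliferation list all 3 anti-PD1 libraries lay left of the vehicle ticks.

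Of the 35 gene lists examined, the interferon gamma response had the most genes at an unadjusted p under 0.05 by edgeR. It was also the list with the most tested genes. All 29 members were positive, with a median of 0.65, and 12 were higher at an unadjusted p under 0.05 by edgeR, where 3.31% of all genes were, but 0 passed after adjustment and 0 had groups that did not overlap. In anti-PD1 3 all 29 lay above the highest vehicle library and in anti-PD1 1 27 did, while in anti-PD1 2 0 did and 3 lay below the lowest one. Over all genes tested, 31.4%, 36.5% and 28.5% lay above in anti-PD1 3, 1 and 2, and 28.3% lay below in anti-PD1 2. The vehicle libraries themselves were spread: their list levels were 0.375, 0.05 and -0.425 around the vehicle mean, against 0.967, -0.023 and 0.996 in the anti-PD1 libraries. Outside this comparison, the levels were 0.652, 1.161 and 0.059 with regorafenib alone. The median was 0.48 without anti-PD1 1, 0.94 without anti-PD1 2 and 0.50 without anti-PD1 3.

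Gbp2, a guanylate-binding protein of cell-autonomous defence, stood at 592, 509.8 and 345 CPM with vehicle and 1186, 541 and 989 CPM with anti-PD1 (log2 fold change 0.91 ± 0.33, SE). Tgtp1, an immunity-related GTPase with the near-identical neighbour Tgtp2, stood at 205, 169 and 119.9 CPM against 378, 192 and 249.8 CPM, and Tgtp2 at 267, 218 and 168 CPM against 418, 256 and 333 CPM. For all 3 GTPase genes anti-PD1 1 was the highest of the 6 libraries and vehicle 3 the lowest. Irf1, a transcription factor of this response, stood at 308, 304 and 238 CPM with vehicle and 433, 299 and 429.6 CPM with anti-PD1. Ciita, the master regulator of class II genes, stood at 121, 99.4 and 61.7 CPM against 213, 85.9 and 215 CPM. The chemokine gene Cxcl9, which draws CXCR3-bearing T cells, stood at 117, 80.9 and 36.6 CPM against 123, 60.7 and 207 CPM (adjusted p 0.866 by edgeR). Its relative Cxcl10 had near-equal means: 135, 134 and 80.0 CPM with vehicle and 97.7, 71.0 and 181 CPM with anti-PD1, a log2 fold change of 0.00 ± 0.50 (SE) with an adjusted p of 0.999 by edgeR.

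Since these genes followed a like order from library to library, the RefSeq promoters of Cd274, Gbp2 and Tgtp1 (250 bases before to 50 after the start, GRCm38.p6) are shown, with matches to 2 interferon-response motifs in capitals. The motifs were GAS, searched as TTCNNNGAA, which reads the same on both strands, and the ISRE core, searched as GAAANNGAAA and, for the other strand, TTTCNNTTTC. They lie at chr19:29367188-29367487 on the plus strand, chr3:142620413-142620712 on the plus strand and chr11:48992197-48992496 on the minus strand, each written 5′ to 3′ along its gene.
Cd274: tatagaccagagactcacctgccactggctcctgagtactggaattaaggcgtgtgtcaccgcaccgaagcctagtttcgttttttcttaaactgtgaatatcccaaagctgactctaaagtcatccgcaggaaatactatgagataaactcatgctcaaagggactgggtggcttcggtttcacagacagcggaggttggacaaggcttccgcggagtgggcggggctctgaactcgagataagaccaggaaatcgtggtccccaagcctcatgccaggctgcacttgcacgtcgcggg
Gbp2: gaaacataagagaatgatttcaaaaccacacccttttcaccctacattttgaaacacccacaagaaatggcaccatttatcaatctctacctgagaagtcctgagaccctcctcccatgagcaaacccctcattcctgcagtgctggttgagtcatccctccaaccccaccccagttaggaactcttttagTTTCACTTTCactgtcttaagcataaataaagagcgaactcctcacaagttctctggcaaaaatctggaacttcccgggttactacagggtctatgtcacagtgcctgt
Tgtp1: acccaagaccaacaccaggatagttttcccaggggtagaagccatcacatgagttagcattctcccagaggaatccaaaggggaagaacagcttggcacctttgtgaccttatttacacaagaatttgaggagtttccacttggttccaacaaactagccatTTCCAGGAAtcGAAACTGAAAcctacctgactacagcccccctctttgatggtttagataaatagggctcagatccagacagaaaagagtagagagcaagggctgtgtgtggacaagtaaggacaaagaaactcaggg
The Gbp2 promoter holds an ISRE core from -59 to -50 relative to the start, and that of Tgtp1 holds a GAS match from -88 to -80 and, without overlap, an ISRE core from -77 to -68. The Cd274 window holds neither set of letters. Of the 29 interferon gamma response genes 17 matched a RefSeq promoter, and 9 held a GAS match and 11 an ISRE core, where 9.55% and 3.99% of 27025 genes' promoters of the same length did. Among 20 matched type I interferon response genes 3 held a GAS match and 12 an ISRE core, and among 18 matched proliferation genes 1 held a GAS match and 0 an ISRE core. The matches describe letters only, and the list was assembled from known interferon targets.

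**Figure D2:**
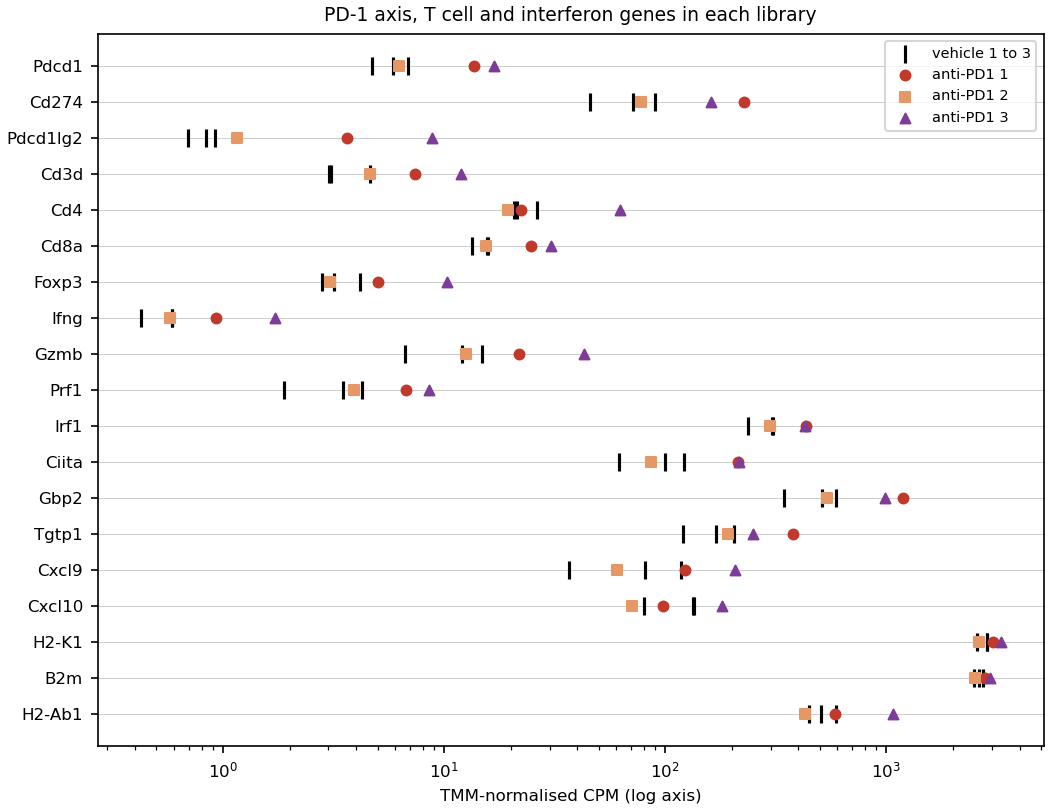
TMM-normalised CPM of 19 PD-1 axis, T cell, interferon and MHC genes in each library on a log axis (black ticks are the 3 vehicle libraries, coloured symbols the 3 anti-PD1 libraries). Anti-PD1 1 and 3 lay right of the vehicle ticks for Cd274, Gbp2 and Ciita, anti-PD1 2 lay among them, and for Cxcl10 the anti-PD1 libraries lay on both sides.

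Antigen presentation differed less. Of 16 genes of the class I pathway 15 were positive, with a median of 0.15 and 0 past the test. Without anti-PD1 3 that median was 0.06, without vehicle 3 0.09 and without anti-PD1 2 0.27. H2-K1, a class I heavy chain, stood at 2856, 2849 and 2569 CPM with vehicle and 3026, 2634 and 3288 CPM with anti-PD1 (log2 fold change 0.11 ± 0.13, SE, and by edgeR an adjusted p of 0.892). B2m, the light chain, stood at 2731, 2613 and 2480 CPM against 2795, 2527 and 2950 CPM, with a 95% interval of -0.17 to 0.33 for its log2 fold change. Nlrc5, the activator of class I genes, stood at 334, 305 and 237 CPM against 453, 304 and 463 CPM, and Tap1, a subunit of the peptide transporter, at 488, 499 and 375 CPM against 645, 444 and 612 CPM. All 12 class II genes were positive with a median of 0.41, which was 0.06 without anti-PD1 3 and 0.65 without anti-PD1 2. H2-Ab1, a class II chain, stood at 590.2, 504 and 446 CPM against 583, 427 and 1067 CPM, so that anti-PD1 3 alone lay above the vehicle range. C3H mice carry MHC alleles that differ from those of the reference strain. How that moved the counts of H2 genes was not tested.

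Other immune lists were also highest in anti-PD1 3. The summed level of 19 tested macrophage genes was 2002 CPM in that library, 939.8 and 1070 CPM in anti-PD1 1 and 2, and 1013 to 1266 CPM with vehicle. Csf1r, the macrophage growth factor receptor, stood at 96.2, 78.2 and 94.1 CPM with vehicle and 77.9, 86.4 and 177 CPM with anti-PD1, and its log2 fold change of 0.35 ± 0.42 (SE, adjusted p of 0.901 by edgeR) became -0.12 without anti-PD1 3. Mertk, a receptor for clearing dying cells, had groups apart, at 5.66, 3.98 and 4.28 CPM against 5.81, 7.03 and 16.6 CPM. Arg1, whose product breaks down arginine in myeloid cells, stood at 1.38, 0.959 and 0.848 CPM against 4.79, 1.23 and 1.80 CPM, and Nos2, the inducible nitric oxide synthase, at 15.9, 5.13 and 3.90 CPM against 11.2, 5.64 and 9.66 CPM. Dendritic cell genes had a median of 0.55, and -0.01 without anti-PD1 3. Ccl22, a chemokine of mature dendritic cells, stood at 7.89, 8.52 and 7.60 CPM against 13.8, 7.37 and 22.3 CPM. All 9 tested natural killer cell genes were positive, with a median of 0.67 that was 0.03 without anti-PD1 3 and 1.02 without anti-PD1 2.

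Immunoglobulin genes differed widely between the anti-PD1 libraries. Ighg2c, a heavy-chain constant gene, stood at 0.545, 0.148 and 1.39 CPM with vehicle and at 4.67, 0.0768 and 26.8 CPM with anti-PD1, and the kappa constant gene Igkc at 5.45, 2.44 and 2.66 CPM against 12.7, 1.08 and 41.2 CPM. Anti-PD1 2 was the lowest of the 6 libraries for both genes and anti-PD1 3 the highest. The log2 fold changes were 3.92 ± 1.29 and 2.39 ± 1.10 (SE). Summed heavy-chain variable segments (183 genes) went the same way, at 2.10, 1.22 and 1.35 CPM with vehicle against 5.22, 0.384 and 16.4 CPM with anti-PD1. The beta-chain segments of the T cell receptor (35 genes) summed to 3.90, 3.98 and 2.62 CPM against 5.98, 3.49 and 9.73 CPM. The B cell list as a whole had 13 of 17 tested members positive with a median of 0.42, which turned to -0.06 without anti-PD1 3 and was 0.72 without anti-PD1 2, and 0.15 with protein-coding genes only. Cd79a and Ms4a1, defining markers of B cells, had too few counts to be tested. Constant genes are strain-polymorphic, and reads of C3H alleles were aligned to a reference of another strain.

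Acute-phase genes were mostly higher in mean with anti-PD1. Of 14 tested complement and acute-phase genes 12 were positive with a median of 0.40. By edgeR 5 were higher at an unadjusted p under 0.05, where 3.31% of all genes were, and 0 passed. For 3 (21.4%) all anti-PD1 libraries lay above all vehicle libraries, where 7.93% of all genes did. Saa3, a serum amyloid A protein, stood at 4.28, 2.77 and 3.24 CPM with vehicle and 18.9, 3.99 and 33.1 CPM with anti-PD1 (log2 fold change 2.45 ± 0.67, SE). Serpina3m and Serpina3n, neighbouring genes for serine protease inhibitors of similar sequence, had groups apart. Serpina3m stood at 2.81, 1.77 and 0.694 CPM against 5.81, 5.61 and 10.3 CPM, and Serpina3n at 39.5, 23.8 and 20.3 CPM against 58.8, 41.2 and 115 CPM. Lcn2, the iron-scavenging lipocalin, stood at 14.2, 5.46 and 7.79 CPM against 27.2, 10.9 and 36.2 CPM. For Serpina3m and Serpina3n anti-PD1 2 also lay above the vehicle libraries, unlike for any of the 29 interferon gamma response genes.

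Cell cycle genes were lower in all 3 anti-PD1 libraries. All 21 proliferation genes had a negative log2 fold change, with a median of -0.38, and for 14 of them all anti-PD1 libraries lay below all vehicle libraries, where 9.08% of all genes did. By edgeR, 0 passed and 0 had an unadjusted p under 0.05. The list level was -0.52, -0.28 and -0.32 in anti-PD1 1 to 3 against -0.183, 0.141 and 0.041 with vehicle. E2f1, a transcription factor of S phase entry, stood at 19.8, 28.1 and 26.3 CPM with vehicle and 15.4, 17.1 and 17.3 CPM with anti-PD1 (log2 fold change -0.58 ± 0.29, SE). Pcna, the sliding clamp of DNA polymerase, stood at 111, 119.9 and 121 CPM against 84.6, 102 and 97.8 CPM. The mitotic cyclin gene Ccnb2 stood at 51.1, 74.1 and 67.0 CPM against 39.4, 46.7 and 44.0 CPM, and Birc5, which encodes survivin, at 55.8, 78.0 and 71.9 CPM against 44.3, 51.3 and 50.5 CPM. Mki67 overlapped, at 295, 409 and 334 CPM against 323, 298 and 324 CPM, with a log2 fold change of -0.13 ± 0.27, SE, and by edgeR an adjusted p of 0.935). The list median stayed between -0.48 and -0.31 under every alternative tried.

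Squamous epithelial genes were split between both directions, and 1 of the 6 libraries stood apart in its matrix genes. Of 23 squamous epithelial genes 11 were positive, with a median of -0.02 that turned to 0.08 without anti-PD1 3 and to 0.05 without vehicle 2. All anti-PD1 libraries lay below all vehicle libraries for 5 (21.7%), where 9.08% of all genes did. These 5 include the keratin genes Krt5 and Krt17 and Sfn, which encodes the epithelial 14-3-3 protein. Krt17, a keratin of stressed and basal epithelium, stood at 1150, 1468 and 1112 CPM with vehicle and 500.4, 901 and 1042 CPM with anti-PD1, and Sfn at 126, 204 and 153 CPM against 72.4, 123 and 111 CPM. Krt14, the basal partner of Krt5, overlapped at 4320, 5102 and 4618 CPM against 3349, 4761 and 3770 CPM. Fibroblast and matrix genes had 23 of 26 negative log2 fold changes and a median of -0.29, but 0 groups apart, since only anti-PD1 1 was low. There the 26 genes summed to 11480 CPM, against 43250 and 46820 CPM in anti-PD1 2 and 3 and 35710 to 46070 CPM with vehicle. Outside this comparison, the sum was 18570, 42940 and 10060 CPM with regorafenib and 10810, 9641 and 20180 CPM with the combination. Without anti-PD1 1 the median was 0.08 and without anti-PD1 3 it was -0.57. Col1a1, a chain of type I collagen, stood at 2411 CPM in anti-PD1 1 and at 9810 to 13090 CPM in the other 5 libraries. Kdr, the VEGF receptor of endothelial cells, stood at 13.7, 16.6 and 15.6 CPM with vehicle and 11.0, 13.0 and 23.1 CPM with anti-PD1 (log2 fold change 0.04 ± 0.39, SE, and by edgeR an adjusted p of 0.984). The part of this low matrix level in the other values of anti-PD1 1 was not tested.

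The 10 higher and 10 lower genes with the smallest p-values, ranked in each direction, came from none of these lists. The groups did not overlap for any of them. Bbx (ENSMUSG00000022641, chromosome 16, 50191844 to 50432390), an HMG-box protein, stood at 82.7, 76.9 and 76.4 CPM with vehicle and 111, 101 and 98.5 CPM with anti-PD1. Its log2 fold change was 0.40 ± 0.07 (SE), with an unadjusted p of 0.000211, an adjusted p of 0.865 by edgeR and 0.0222 by DESeq2. Itgb8, an integrin chain that activates TGF-beta, stood at 1.34, 0.738 and 0.848 CPM against 6.28, 2.99 and 2.95 CPM. Its log2 fold change was 2.06 ± 0.41 (SE), with an adjusted p of 0.0222 by DESeq2. Cblb, a ubiquitin ligase that restrains T cell activation, stood at 88.5, 85.6 and 68.1 CPM against 171, 144 and 136 CPM (log2 fold change 0.90 ± 0.20, SE). The remaining 7 of the 10 higher genes were Rapgef6, an exchange factor for Rap GTPases, Dop1b, Tmem131, Lnpep (an aminopeptidase), Parp4, Ubr4 (a ubiquitin ligase) and C2cd3 (a centriole protein), with log2 fold changes of 0.33 to 0.51. For Parp4 and Ubr4 anti-PD1 2 lay nearer to the vehicle libraries, for Ubr4 at 171 CPM against 133 to 158 CPM with vehicle and 218 and 213 CPM in the other anti-PD1 libraries. A choice by smallest p favours genes whose groups are apart. With regorafenib alone, the mean was 102 CPM for Bbx, 2.05 CPM for Itgb8 and 131 CPM for Cblb.

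Of the 10 lower genes, Scd4 had the largest difference. This stearoyl-CoA desaturase, of a family with similar members, stood at 22.9, 15.8 and 27.0 CPM with vehicle and 5.86, 10.4 and 5.42 CPM with anti-PD1 (log2 fold change -1.60 ± 0.42, SE). Shox2, a homeobox factor, stood at 9.82, 8.60 and 8.33 CPM against 5.47, 5.49 and 4.99 CPM. Sc5d, a desaturase of cholesterol synthesis, stood at 48.4, 56.4 and 51.6 CPM against 36.5, 41.4 and 41.8 CPM. Gnl3, the nucleolar protein nucleostemin, stood at 70.6, 77.2 and 75.1 CPM against 59.2, 57.1 and 58.1 CPM, and Srsf2, a splicing factor, at 298, 346 and 339 CPM against 263, 239 and 271 CPM. The others were Fjx1, Tmem165, Wdr74 (ribosome biogenesis), Ankk1 and Rflnb, with log2 fold changes of -0.53 to -0.23. Passed over at these ranks under the naming rule were 2 higher genes and 1 lower gene. Means with regorafenib alone were 5.14 CPM for Scd4, 6.2 CPM for Shox2 and 45.9 CPM for Sc5d. For Gnl3 and Srsf2 they were 83.4 and 371 CPM.

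**Figure D3:**
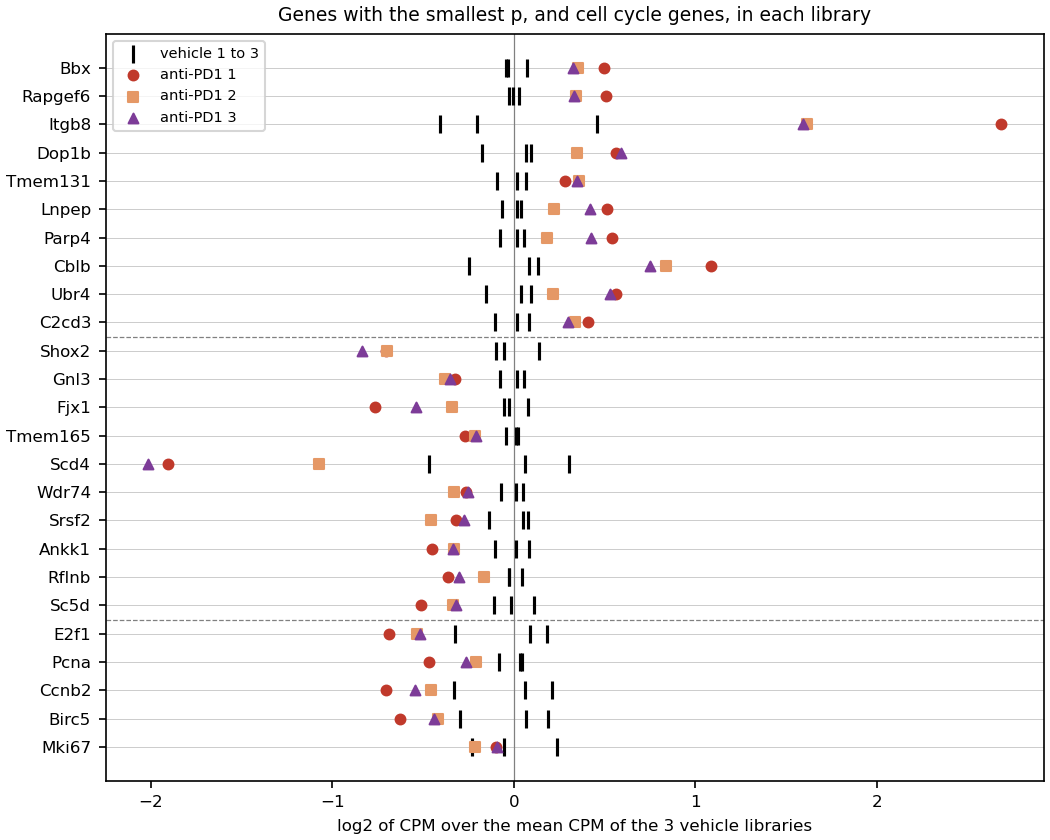
The 10 higher and 10 lower genes with the smallest p and 5 cell cycle genes, as log2 of each library's CPM over the mean CPM of the 3 vehicle libraries (black ticks are vehicle libraries, coloured symbols the anti-PD1 libraries). The groups are apart for all 20 genes, with Itgb8 and Scd4 farthest from the vehicle mean, and Mki67 overlaps.

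Exonic length went with the direction of these differences. The median exonic length was 11527 bases for the 10 higher genes and 3222.5 bases for the 10 lower ones. Among 2475 tested protein-coding genes with over 8000 exonic bases, 67.1% had a positive log2 fold change, the median was 0.08, and 18.9% had all anti-PD1 libraries above all vehicle libraries. Among 4400 genes of 2000 to 4000 exonic bases, 42.7% were positive, the median was -0.03, and 12% had all anti-PD1 libraries below. The median level of the longest genes against the vehicle mean was 0.117, 0.072 and 0.031 (log2) in anti-PD1 1 to 3 and -0.017 to 0.017 with vehicle. Outside this comparison, that level was -0.007, 0.007 and 0.092 with regorafenib alone and 0.153, 0.098 and 0.035 with the combination. The part of length in the values of single genes was not tested. This split was looked at after the values were seen.

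**Figure D4:**
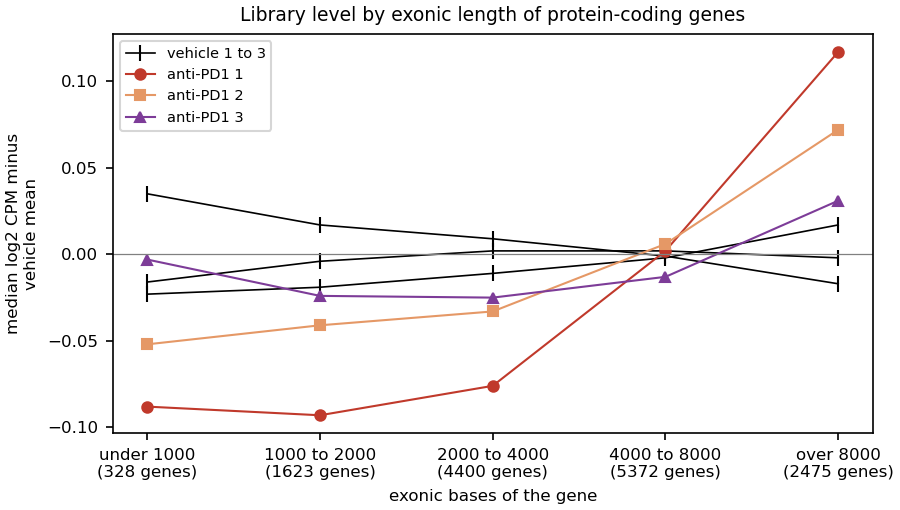
Median log2 CPM minus the vehicle mean of tested protein-coding genes in 5 bins of exonic length, for each library (black lines are vehicle libraries, coloured lines the anti-PD1 libraries). All 3 anti-PD1 lines lie above the vehicle lines for genes of over 8000 bases, and below them for genes of 1000 to 4000 bases.

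Anti-PD1 1 and 3 had many genes far from the other 5 libraries, and anti-PD1 2 had few. Among 11510 genes with a mean of at least 5 CPM, anti-PD1 1 was at least 2-fold above the nearest other library for 26 genes and 2-fold below for 226, anti-PD1 3 for 99 and 1, and anti-PD1 2 for 0 and 3. The vehicle libraries had at most 5 above and 9 below. In anti-PD1 1 the low genes were led by Lrrc17, Fcgbp, Edil3 (a secreted integrin ligand), Pamr1 and Calml4. Lrrc17 stood at 7.47 CPM there and at 64.5 to 76.7 CPM in the other 5. The high genes there were Hbb-bs, a beta globin gene, Ltf (lactotransferrin), Sectm1b, Klhdc7a and the adhesion gene Ceacam1. Ltf stood at 39.3 CPM against 0.694 to 7.17 CPM elsewhere, and Hbb-bs at 30.7 CPM against 0.691 to 5.36 CPM. Sectm1b stood at 118 CPM there, 28.6 and 23.5 CPM in the other anti-PD1 libraries and 10.4 to 15.7 CPM with vehicle.

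In anti-PD1 3 the high genes were Ighg2c, Fcgbp, Nr1h3, Penk and Igkc. Nr1h3, the oxysterol receptor LXR-alpha of macrophages, stood at 16.7 CPM there and at 2.51 to 3.56 CPM elsewhere, and Penk, the enkephalin precursor, at 26.9 CPM against 3.70 to 7.04 CPM. Fcgbp, an IgG Fc-binding mucin-like protein, was 159 CPM in anti-PD1 3, 1.61 CPM in anti-PD1 1 and 13.5 to 33.4 CPM in the other 4. The low genes of anti-PD1 3 were Mgat3, Adm, Krt13, Stbd1 and Spon2, and Adm, the hypoxia-responsive adrenomedullin gene, stood at 14.1 CPM against 27.7 to 82.9 CPM. In anti-PD1 2 the low genes were Hbb-bs, Igkc and the muscle genes Ckm, Atp2a1 and Tcap, with Ckm at 3.07 CPM against 8.44 to 19.01 CPM. Its high genes were Scd1, Kank4, Cyp2w1, Mtus2 and Ust, and Scd1, a desaturase of fatty acid synthesis, stood at 48.8 CPM there against 7.30 to 29.2 CPM. These genes were picked for their distance, so no test was made on them.

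The same antibody given with regorafenib was compared with regorafenib alone in the other 6 libraries, which share no sample with the comparison above. By edgeR 0 of 16974 genes passed there (0% called, smallest adjusted p 0.402), and 925 (5.45%) had an unadjusted p under 0.05. The log2 fold change was positive for 49.6% of genes there, and all combination libraries lay above all regorafenib libraries for 838 genes (4.94%) and below them for 480 (2.83%). The difference between both anti-PD1 effects, tested as an interaction, passed for 0 genes by edgeR (0% called), with 449 (2.65%) at an unadjusted p under 0.05 and a smallest adjusted p of 0.9998. List medians stood side by side as follows. The T cell list had 0.71 without and -0.25 with regorafenib, and the cytotoxic list 0.66 and -0.34. T cell list levels against the vehicle mean were 1.229, 1.31 and -0.027 with regorafenib alone and -0.183, 0.637 and 1.286 with the combination. Those of the cytotoxic list were 1.178, 1.234 and -0.036 with regorafenib alone and -0.207, 0.418 and 1.074 with the combination. The interferon gamma response had 0.65 and 0.11, and complement and acute-phase genes 0.40 and -0.22. The proliferation list was negative in both, at -0.38 and -0.22. So was the fibroblast list, at -0.29 and -0.61, but its -0.29 became 0.08 without anti-PD1 1. Proliferation list levels were 0.405, -0.755 and -0.469 with regorafenib alone and -0.876, -0.235 and -0.154 with the combination, so these groups overlapped. Cd274 stood at 116, 181 and 86.9 CPM with regorafenib and 137, 155 and 178 CPM with the combination, a log2 fold change of 0.29 beside 1.17 for anti-PD1 alone. Ighg2c stood at 0.338, 0.440 and 0.111 CPM with regorafenib and 20.2, 21.2 and 23 CPM with the combination, a log2 fold change of 6.19 beside 3.92, and it did not pass in either comparison by edgeR. These list medians were not tested against each other.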

How the data were processed

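Polyadenylated RNA of 12 tumour samples was sequenced as stranded libraries, and the deposited table holds raw read counts of 55487 Ensembl genes. Reads were trimmed with cutadapt 2.4 and aligned with STAR 2.7.2a to GRCm38, per the submitters' processing notes, and how reads were counted, with which strand option and gene annotation, is not given in the sources used here. Where genes overlap on opposite strands, their reads may therefore be mixed. Symbols, positions and exonic lengths are from GENCODE M21, which matched 55227 identifiers.

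Genes were kept by filterByExpr (minimum count 10, total 15), which left 16974 with 99.91% to 99.94% of the counts. edgeR 4.0.16 (R 4.3.3) was fitted with TMM factors and robust quasi-likelihood to 4 group means over the 12 libraries (8 residual degrees of freedom, with a biological coefficient of variation of 0.227 in common). The two-sided p-values were corrected by the Benjamini-Hochberg method over all genes, and the threshold was an adjusted p of 0.05. SEs and 95% intervals come from that fit. List levels use log2 CPM with a prior count of 2. Libraries of 22591835 to 28209036 counts make levels under 1 CPM imprecise. The procedure was tested on simulated data with 50 genes changed at each fold. It called 12% of those changed 1.5-fold, 54% at 2-fold, 68% at 3-fold and 78% at 5-fold. There were 4 false calls among 16774 unchanged genes.

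The genes named are, by smallest p, 10 higher and 10 lower (mean of at least 1 CPM, no predicted genes or receptor segments), a panel of 24 genes (1 of them not reported here), up to 4 members with the smallest p of each list described, and for each anti-PD1 library the 5 higher and 5 lower genes (mean of at least 5 CPM) farthest from the other 5. Cd79a and Ms4a1 are named as markers. The comparison, lists, panel and rule were chosen with earlier results of these data known. Alternatives were DESeq2 1.42.0, RLE factors, no filter, replicate number as a block, only the 6 libraries compared, protein-coding genes only, a covariate of Y-linked genes, and each library left out in turn.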

Additional observations from a re-analysis of the deposited data

How the results depend on the processing

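The count of 0 genes past the threshold held under every alternative except DESeq2, which called 2 genes, Bbx and Itgb8 (counted both over all genes and among the genes named), while it called 0 for the interaction. At an unadjusted p under 0.05, the 878 genes became 873 with RLE factors, 1068 of 32550 without a filter, 744 of 14198 with protein-coding genes only, 1651 of 16098 with only the 6 libraries compared and 1726 with the Y-linked covariate. With 1 library left out at a time it was 430 (without anti-PD1 1) to 1261 (without regorafenib 1), and also 442 without vehicle 3 and 445 without vehicle 2. The cause was not tested. With the replicate number as a block, 0 genes passed and 579 had an unadjusted p under 0.05. No pairing by number was seen: deviations of same-numbered anti-PD1 and vehicle libraries correlated at -0.166, -0.043 and -0.016. No anti-PD1 library correlated best with the vehicle library of its own number. With 3 libraries per group, these correlations cannot settle if the samples were paired. Of 35 lists 20 had a positive median, 14 did without anti-PD1 3, and 19 to 22 under the other alternatives. With the replicate block and the Y-linked covariate, in that order, the log2 fold change turned to -0.05 and -0.03 for Cxcl10, -0.22 and -0.05 for Cyp2w1, -0.11 and -0.26 for Fcgbp, -0.01 and -0.02 for Kdr, -0.08 and -0.28 for Mgat3, and -0.01 and -0.22 for Spon2. With 1 library left out at a time the sign turned for 25 of 94 named genes. Their ranges were -0.94 to 0.05 for Adm, -0.97 to 0.1 for Calml4, -0.12 to 0.9 for Cd4, -0.02 to 1.48 for Ceacam1, -0.74 to 0.08 for Col1a1, -0.12 to 0.55 for Csf1r, -0.45 to 0.27 for Cxcl10, -0.55 to 0.47 for Cyp2w1 and -0.71 to 0.15 for Edil3. They were -1.38 to 1.85 for Fcgbp, -0.01 to 0.69 for H2-Ab1, -0.53 to 2.51 for Hbb-bs, -0.35 to 0.23 for Kdr, -0.14 to 1.54 for Klhdc7a, -0.36 to 0.22 for Krt13, -0.82 to 0.05 for Lrrc17, -1.12 to 3.51 for Ltf and -0.85 to 0.57 for Mgat3. They were -0.23 to 0 for Mki67, -0.25 to 0.98 for Nos2, -0.83 to 0.07 for Pamr1, -0.4 to 1.51 for Scd1, -0.78 to 0.55 for Spon2, -0.46 to 0.15 for Stbd1 and -0.01 to 0.31 for Ust. Genes under 1 CPM rest on few counts, and how depth limits them was not tested.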

Other observations

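Further values of the same libraries are given here without explanation. The red blood cell and platelet list (5 tested genes) was uneven between libraries, with a level against the vehicle mean of 1.651, -1.11 and 0.632 (log2) in anti-PD1 1 to 3 and of -0.21, -0.532 and 0.742 with vehicle. Its median log2 fold change of 1.76 became -0.12 without anti-PD1 1. The 4 Y-linked genes, carried by the male hosts, summed to 33.6, 25.6 and 30.8 CPM with vehicle and 21.3, 28.4 and 42.3 CPM with anti-PD1, so that the order of the anti-PD1 libraries was that of the macrophage genes and not that of the interferon genes. Kappa variable segments (160 genes) summed to 3.398, 1.48 and 1.62 CPM with vehicle and 11.1, 1.15 and 30.9 CPM with anti-PD1, and 59 of them had at least 1 count in anti-PD1 3. Skeletal muscle genes summed to 374, 274 and 551 CPM with vehicle and 335, 203 and 359 CPM with anti-PD1. Of 16 genes of the ATF4 stress response 12 had a negative log2 fold change, with a median of -0.18, and 5 (31.2%) had all anti-PD1 libraries below all vehicle libraries, where 9.08% of all genes did. Asns, the asparagine synthetase of that response, stood at 126, 137 and 124 CPM with vehicle and 97.1, 106 and 104 CPM with anti-PD1. Type I interferon genes had a median of 0.13 over 27 genes. It became 0.07, 0.30 and 0.04 when anti-PD1 1, 2 and 3 were left out in turn. All 27 lay above the highest vehicle library in anti-PD1 3, where 31.4% of all genes did. In anti-PD1 2, 22 lay below the lowest vehicle library, where 28.3% of all genes did. By edgeR, 0 genes of these lists passed the threshold.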
